A study of Mus musculus with 12 samples.

Results

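The 10 genes described here encode the core of excitation-contraction coupling and calcium handling in skeletal muscle: Cacna1s, Ryr1, Jph1, Jph2, Atp2a1, Atp2a2, Casq1, Casq2, Sln and Pvalb. They were chosen by symbol, and all 10 were found among the 22923 gene symbols of the muscle transcriptome. Sarcolipin (Sln) was the member that differed most between genotypes, with a WT mean of 19.7 FPKM and a KO mean of 99.1 FPKM, but neither it nor any other member passed the test across all genes in any comparison.

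RNA came from the proximal hind limb muscle of 12 male FVB mice (FVB/N in the methods), 22 weeks old, with 1 library per mouse and 3 mice per group. The 4 groups were WT mice on normal chow (titled Flox-control), WT mice on high fat diet (Flox-highfat), KO mice on normal chow (KO-control) and KO mice on high fat diet (KO-highfat). KO mice lacked both Cryab, which encodes αB-crystallin, and its neighbour HspB2 in every tissue, so an effect of one gene cannot be told apart from an effect of the other. WT mice came from the same heterozygous breeding. The titles call them Flox, and no Cre is named. The study compared these groups to learn how the deletion and the diet act on muscle.

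Values are FPKM, fragments scaled to transcript length and to the library, which is meant to make levels comparable between genes and between libraries. Some genes depart from this, as described below. The depth in reads is unknown. Library totals lay between 499509 and 691621 FPKM in 11 libraries. The remaining library, KO chow mouse 3, had a higher total because 1 microRNA gene was listed at a very high value. The genotype label of 6 samples conflicts with the title, and groups follow the title. Cryab was between 412 and 837 FPKM in the 6 WT libraries and between 0.845 and 1.75 FPKM in the 6 KO libraries, which goes with the title in all 12. The tissue label was matched by high fast fibre, slow fibre and general muscle fibre markers. Exceptions were Myh4, listed at 0 in all 12 libraries, and Acta1, listed at 0 in WT chow mouse 1 and KO high fat mouse 2. In 3 libraries there were lymphoid markers summing to 68.9 FPKM (WT chow mouse 2), 79.0 FPKM (KO chow mouse 1) and 75.7 FPKM (KO chow mouse 3), against at most 6.40 FPKM in the other 9.

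In skeletal muscle, the voltage sensor in the transverse tubule, whose pore subunit is Cacna1s, opens the ryanodine receptor Ryr1 in the facing sarcoplasmic reticulum, and calcium leaves the reticulum to start contraction. Junctophilins hold the membranes together, calsequestrins buffer calcium inside the reticulum, parvalbumin buffers it in the cytosol of fast fibres, and SERCA pumps return it to the store. Fast fibres mainly use the pump Atp2a1 and the buffer Casq1, slow fibres and heart mainly use Atp2a2 and also hold Casq2, and sarcolipin is a small membrane protein that binds the pump and uncouples calcium transport from ATP use.

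On normal chow, WT mice had Atp2a1 at 12472 ± 2127 FPKM (SD, n = 3) and Pvalb at 11034 ± 1832 FPKM, the 7th and 10th highest mean levels of all genes in that group. Casq1 followed at 1370 ± 196 FPKM. Ryr1 (300 ± 52.4 FPKM), Jph2 (254 ± 39.3 FPKM) and Cacna1s (241 ± 37.6 FPKM) overlapped each other in range. Jph1 (94.6 ± 14.9 FPKM) and Atp2a2 (89.0 ± 40.0 FPKM) came next and overlapped, and Sln (11.4 ± 6.94 FPKM) and Casq2 (8.93 ± 0.759 FPKM) were lowest and overlapped. In KO mice on normal chow the order of Casq2 and Sln was the same, but Sln at 70.0 ± 39.0 FPKM overlapped Jph1 at 80.7 ± 17.2 FPKM and no longer overlapped Casq2 at 17.3 ± 9.61 FPKM.

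**Figure D1:**
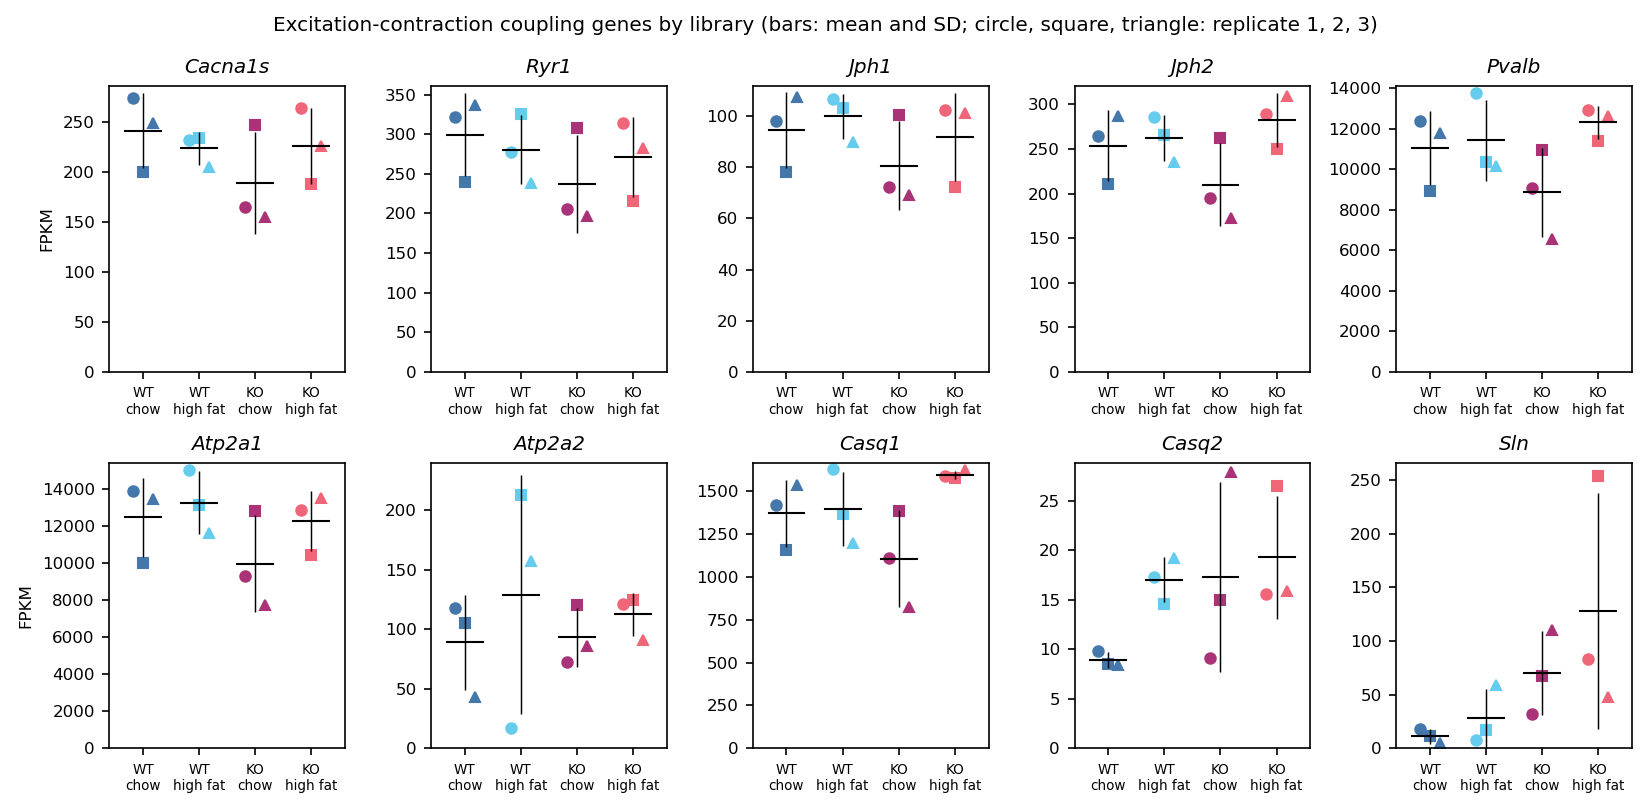
FPKM of the 10 genes (linear axes from 0) in each of the 12 libraries by group, with circle, square and triangle for replicate 1, 2 and 3, horizontal bars for group means and vertical bars for SD (n = 3, cut at 0). Sln reached at most 18.4 FPKM in WT chow mice and at least 32.4 FPKM in KO mice, with 1 WT high fat mouse at 58.9 FPKM, while most other genes overlapped between all groups.

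The voltage sensor and the release channel did not differ between groups beyond their spread. Cacna1s was at 274, 200 and 249 FPKM in WT chow mice, 232, 234 and 205 FPKM in WT high fat mice, 165, 247 and 155 FPKM in KO chow mice, and 263, 187 and 225 FPKM in KO high fat mice. Ryr1, in the same order of mice, was at 322, 240 and 337 FPKM, then 278, 325 and 238 FPKM, then 206, 308 and 197 FPKM, and last 315, 216 and 283 FPKM. The lowest values of both genes were in KO chow mice 1 and 3, and all 4 groups overlapped. Averaged over diets, the log2 fold change of KO against WT was -0.18 for Cacna1s (95% confidence interval -0.48 to 0.11) and -0.20 for Ryr1 (-0.53 to 0.12). For high fat against chow it was 0.09 (-0.21 to 0.38) and 0.06 (-0.27 to 0.38).

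The junctophilins span the gap between transverse tubule and reticulum, Jph1 in skeletal muscle and Jph2 in both skeletal muscle and heart. Jph1 lay between 69.3 and 107 FPKM over all 12 libraries, and the groups overlapped. Jph2 was at 265, 210 and 286 FPKM in WT chow mice, 286, 266 and 235 FPKM in WT high fat mice, 195, 262 and 173 FPKM in KO chow mice, and 289, 250 and 310 FPKM in KO high fat mice. The diet difference of Jph2 in KO mice was 0.44 on the log2 scale (SE 0.17), with adjusted p = 0.43 by limma with Benjamini-Hochberg adjustment, and the groups overlapped. Jph2 was at 249 to 270% of the Jph1 level in the 9 libraries of the first 3 groups, and at 282, 346 and 306% in KO high fat mice. Those 3 ratios were the highest of the 12. Over both genotypes the diet difference of this log2 ratio was 0.11 (exact permutation test within genotypes, two-sided, p = 0.125, adjusted p = 0.40 over 8 ratio tests).

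The fast SERCA pump Atp2a1 ranged from 10028 to 13902 FPKM in WT chow mice, from 11610 to 15046 FPKM in WT high fat mice, from 7756 to 12837 FPKM in KO chow mice, and from 10426 to 13525 FPKM in KO high fat mice. The groups overlapped, and KO against WT gave a log2 fold change of -0.23 (95% confidence interval -0.54 to 0.09) averaged over diets.

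The slow and cardiac SERCA pump Atp2a2 varied mainly within groups. It was at 118, 105 and 43.4 FPKM in WT chow mice, 17.4, 212 and 157 FPKM in WT high fat mice, 72.6, 121 and 86.3 FPKM in KO chow mice, and 121, 124 and 91.4 FPKM in KO high fat mice. The lowest and the highest of the 12 libraries were thus both WT mice on high fat diet, 12.2-fold apart. The within-group SD of Atp2a2 was 1.06 on the log2(FPKM + 1) scale, above that of 99.3% of tested genes, whereas the median of all tested genes was 0.15. KO against WT gave a log2 fold change of 0.28 (95% confidence interval -0.88 to 1.43), and high fat against chow 0.17 (-0.99 to 1.32).

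Atp2a2 followed the slow fibre markers from library to library. Against the mean log2(FPKM + 1) of 10 slow fibre genes (contractile and troponin genes such as Myh7 and Tnnc1), Pearson's r was 0.97 over the 12 libraries and Spearman's rho was 0.97. Both had a two-sided permutation p = 1e-05, the smallest that 100000 permutations can give, and adjusted p = 0.0001 over the 10 members. Without the 2 libraries farthest from the median (WT high fat mouse 1 and WT chow mouse 3) r was 0.94, and with group means removed it was 0.98. In bulk tissue, fewer slow fibres and less of these RNAs per fibre cannot be told apart. For Sln, r with the same list was 0.53 (permutation p = 0.0736, adjusted p = 0.37), with rho 0.38 (p = 0.218), and r was -0.07 without the same 2 libraries and 0.64 with group means removed. For the other 8 members r lay between -0.19 and 0.20. Without those 2 libraries it was 0.15 for Casq2 and between 0.44 and 0.56 for the other 7. Of all genes, the one most like Atp2a2 over the 12 libraries was Myh7, slow myosin heavy chain (r = 0.99), followed by Tnnc1, slow and cardiac troponin C (r = 0.98).

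**Figure D2:**
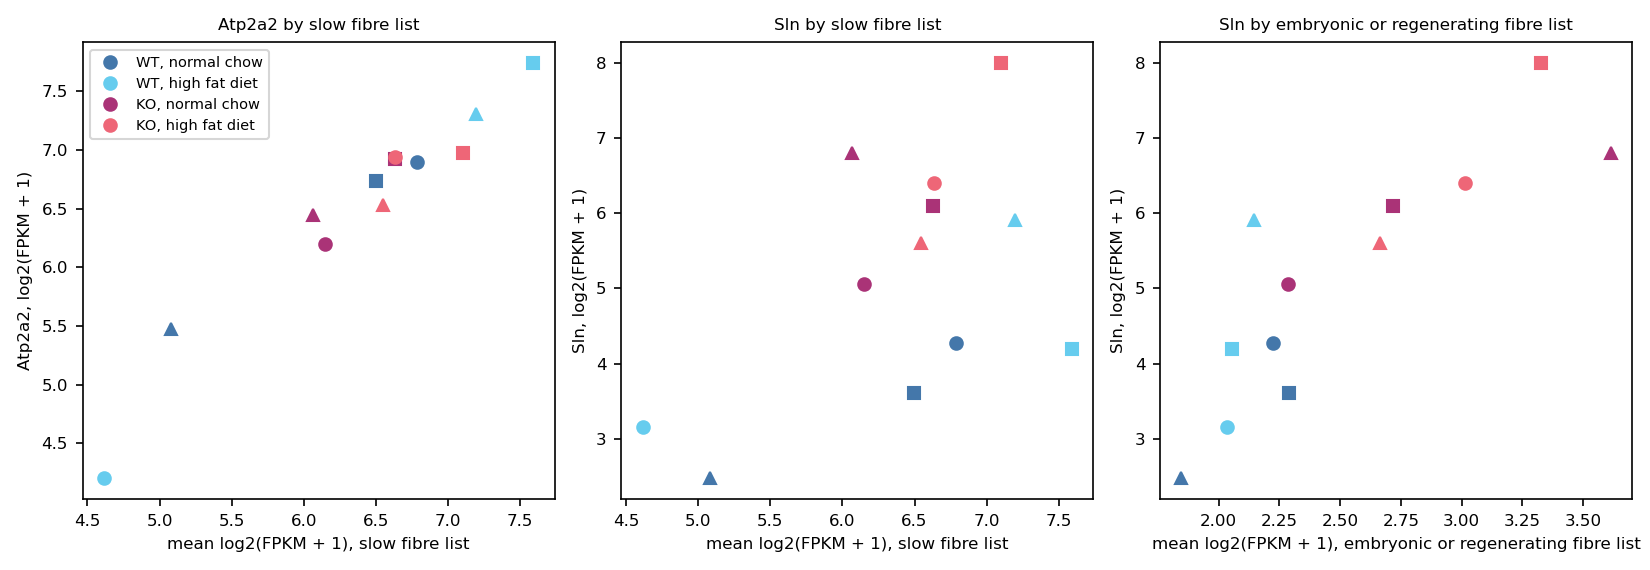
Log2(FPKM + 1) of Atp2a2 and Sln in each library (colour for group, circle, square and triangle for replicate 1, 2 and 3) against the mean log2(FPKM + 1) of the slow fibre list, and of Sln against that of the embryonic or regenerating fibre list. Atp2a2 lies along a line with the slow fibre list (r = 0.97), Sln does so less (r = 0.53), and the KO libraries have higher Sln than WT libraries of like slow fibre level.

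The calsequestrins are shown with the 250 bases before their RefSeq start sites (GRCm38.p6) because the paralogues differed in their pattern, and Pvalb is added because it moved with Casq1. Capitals mark E-boxes (CANNTG, bound by myogenic factors) and MEF2 sites (the 10-base MEF2 consensus). Both motifs read the same on either strand and none of the marked matches overlap.
Casq1, chr1:172219896-172220145, minus strand: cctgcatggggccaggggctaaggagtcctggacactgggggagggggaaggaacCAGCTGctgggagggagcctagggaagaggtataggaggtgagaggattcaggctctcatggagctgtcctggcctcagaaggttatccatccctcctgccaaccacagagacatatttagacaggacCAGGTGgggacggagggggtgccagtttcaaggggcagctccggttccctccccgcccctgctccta
Casq2, chr3:102086165-102086414, plus strand: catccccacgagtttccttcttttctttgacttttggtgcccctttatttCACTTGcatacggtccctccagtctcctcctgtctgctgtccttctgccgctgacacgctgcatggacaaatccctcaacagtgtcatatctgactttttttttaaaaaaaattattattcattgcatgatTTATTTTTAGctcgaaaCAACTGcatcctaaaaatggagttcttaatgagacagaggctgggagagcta
Pvalb, chr15:78206401-78206650, minus strand: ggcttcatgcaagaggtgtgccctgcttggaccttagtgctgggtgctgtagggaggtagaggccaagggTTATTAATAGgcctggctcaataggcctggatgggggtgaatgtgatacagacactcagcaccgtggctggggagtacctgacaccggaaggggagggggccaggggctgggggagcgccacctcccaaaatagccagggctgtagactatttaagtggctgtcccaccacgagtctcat
Casq1 held 2 E-boxes, Casq2 held 2 E-boxes and 1 MEF2 match, and Pvalb held 1 MEF2 match. A second Pvalb start site in the table, not printed, held 1 E-box and 0 MEF2 matches. Of 32851 promoters of this length, 66.2% held an E-box and 2.92% a MEF2 match. A promoter was matched for 7 of the 10 members.

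Casq1, the main calsequestrin of fast fibres, was at 1419, 1154 and 1538 FPKM in WT chow mice, 1626, 1368 and 1197 FPKM in WT high fat mice, 1108, 1386 and 826 FPKM in KO chow mice, and 1587, 1576 and 1622 FPKM in KO high fat mice. The 3 KO high fat values lay within 1.03-fold of each other and above all 3 KO chow values. The diet difference in KO mice was 0.56 on the log2 scale (SE 0.19), with adjusted p = 0.42 by limma with Benjamini-Hochberg adjustment. It was 0.36 without KO chow mouse 3. In WT mice the diet difference was 0.03 (SE 0.19), and the difference between these diet effects was 0.53 (95% confidence interval -0.05 to 1.11, adjusted p = 0.83).

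Casq2, the calsequestrin of heart and slow fibres, was at 9.80, 8.55 and 8.43 FPKM in WT chow mice, 17.3, 14.6 and 19.2 FPKM in WT high fat mice, 9.08, 15.0 and 27.9 FPKM in KO chow mice, and 15.6, 26.5 and 15.9 FPKM in KO high fat mice. All 3 WT high fat mice were above all 3 WT chow mice, while the KO groups overlapped each other. The WT diet difference was 0.86 on the log2 scale (SE 0.32, 95% confidence interval 0.16 to 1.55), and its adjusted p was 0.43 by limma. KO against WT on chow was 0.75 (SE 0.32, adjusted p = 0.28 by limma), again with overlap. It was 0.36 without KO chow mouse 3 and 1.12 without KO chow mouse 1. The KO chow mouse at 9.08 FPKM lay within the WT chow range. Among marker lists, 4 of 4 tendon genes had a WT diet difference above 0 with unadjusted p under 0.05, where 4.42% of all genes did, and none passed (lowest adjusted p = 0.080 by limma). Their sums were 229 to 382 FPKM in WT high fat and 37.0 to 92.9 FPKM in WT chow mice. Of 5 smooth muscle genes, 3 did so and none passed (lowest adjusted p = 0.16 by limma), with sums of 146 to 187 against 107 to 142 FPKM. Of 10 slow fibre genes, 9 were above 0, with a median of 0.37, and 1 had an unadjusted p under 0.05 by limma. Adipocyte, macrophage and lymphoid lists went the other way, with 0 of 6, 0 of 5 and 0 of 6 genes above 0. Of all 11945 genes, 5546 were above 0. The part of these markers in the Casq2 difference was not tested. Casq2 was at 0.548 to 0.741% of the Casq1 level in WT chow mice and at 1.07 to 1.60% in WT high fat mice. In KO mice it was at 0.820, 1.09 and 3.38% on chow and at 0.980, 1.68 and 0.978% on high fat diet. The diet difference of this log2 ratio was 0.90 in WT mice and -0.30 in KO mice. Averaged over both genotypes it was 0.30 (exact permutation test, two-sided, p = 0.49, adjusted p = 0.61). That test covers the average and not the WT difference alone.

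Pvalb, the cytosolic calcium buffer of fast fibres, was at 12380, 8948 and 11774 FPKM in WT chow mice, 13753, 10362 and 10157 FPKM in WT high fat mice, 9097, 10945 and 6539 FPKM in KO chow mice, and 12918, 11376 and 12648 FPKM in KO high fat mice. KO high fat mice were above all KO chow mice, with a log2 difference of 0.50 (SE 0.20) and adjusted p = 0.43 by limma. The difference was 0.30 without KO chow mouse 3. Pvalb most resembled Myoz3 over the 12 libraries (r = 0.98), a Z-disc protein of fast fibres, which was also the gene most like Casq1 (r = 0.97). Casq1 and Pvalb had r = 0.965 with each other.

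Sarcolipin is encoded in 31 codons, printed here because Sln is the member with the widest genotype difference. The gene lies on the plus strand of chromosome 9 (GRCm38, GENCODE annotation), 53850164 to 53854560, with 2 exons, 3.094 Mb from the end of Cryab on the same chromosome. Its coding sequence stands in 1 exon, with the start and stop codons in capitals.
Sln, chr9:53853473-53853568, plus strand: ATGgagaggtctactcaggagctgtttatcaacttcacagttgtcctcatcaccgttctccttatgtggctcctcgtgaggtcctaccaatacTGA

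Sln was at 18.4, 11.2 and 4.56 FPKM in WT chow mice and at 7.91, 17.3 and 58.9 FPKM in WT high fat mice. In KO mice it was at 32.4, 67.3 and 110 FPKM on chow and at 83.4, 254 and 47.4 FPKM on high fat diet. On chow, all 3 KO mice were above all 3 WT mice. On high fat diet, WT mouse 3 at 58.9 FPKM was above KO mouse 3 at 47.4 FPKM.

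On the log2(FPKM + 1) scale the KO against WT difference was 2.53 on chow (SE 0.78) and 2.25 on high fat diet (SE 0.78). Their adjusted p-values were 0.28 and 0.19 by limma with Benjamini-Hochberg adjustment. Without 1 mouse the chow difference ranged from 2.04 (without WT chow mouse 3) to 2.99 (without KO chow mouse 1). The high fat difference ranged from 1.58 (without KO high fat mouse 2) to 2.99 (without WT high fat mouse 3), and was 1.61 without WT high fat mouse 1. Averaged over diets it was 2.39 (SE 0.55, 95% confidence interval 1.17 to 3.61, a 5.24-fold difference), with unadjusted p = 0.00122 and adjusted p = 0.0593 by limma, short of the threshold of 0.05. Adjusted p by limma was 0.038 without WT high fat mouse 3 and 0.043 without KO chow mouse 2, and lay above 0.05 under the other 18 alternatives. Without KO chow mouse 2, 1200 of all genes passed in this comparison, against 103 with all mice. The high fat diet difference was 0.96 in WT mice (95% confidence interval -0.76 to 2.68) and 0.68 in KO mice (-1.04 to 2.40), with overlap in both. The within-group SD of Sln, 1.12, was above that of 99.4% of tested genes.

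Relative to the summed level of both SERCA pumps, Sln was at 0.0337 to 0.131% in WT chow mice and at 0.0525, 0.129 and 0.500% in WT high fat mice. It was at 0.345 to 1.41% in KO chow mice and at 0.348 to 2.40% in KO high fat mice. The genotype difference of this log2 ratio was 2.72 (exact permutation test within diets, two-sided, p = 0.01, the smallest possible being 0.005, and adjusted p = 0.08 over 8 ratio tests). In all, 5 of 6 WT mice were below all 6 KO mice. The same ratio gave a diet difference of 0.65 (p = 0.395, same exact test).

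Markers of other fibre states and cell types were compared beside Sln. Of 6 tested genes in a list of 7 for embryonic or regenerating fibres, 5 had a KO against WT difference above 0 with unadjusted p under 0.05 averaged over diets, where 13.1% of all genes did, and none passed the adjusted threshold (lowest adjusted p = 0.0588 by limma). Their summed level was 42.2 to 53.4 FPKM in WT chow, 48.1 to 52.8 FPKM in WT high fat, 46.7 to 99.3 FPKM in KO chow and 66.4 to 88.2 FPKM in KO high fat mice. KO chow mouse 1, at 46.7 FPKM, lay within the WT range. Myh3, embryonic myosin heavy chain, averaged 0.734 FPKM over the WT mice and 4.20 FPKM over the KO mice. Myh8, from the same list, did not separate the genotypes. It was at 26.9 to 30.3 FPKM in WT chow and 27.9 to 34.4 FPKM in WT high fat mice. In KO mice it was at 24.2 to 31.9 FPKM on chow and 24.2 to 41.6 FPKM on high fat diet. KO high fat mouse 2, with the highest Sln, had 24.2 FPKM of Myh8, and r of Myh8 with Sln is not given. Over the 12 libraries Sln had r = 0.88 with Myh3 (rank 20 of 11944 genes), r = 0.87 with Myog and r = 0.87 with Ncam1. Lower in rank from the same list were Chrna1 (r = 0.77, rank 193) and Tmem8c (r = 0.77, rank 203). These points share libraries and genotypes. The genes most like Sln were Dmp1 (r = 0.96) and D17Wsu104e (r = 0.94).

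In the same comparison, 5 of 6 adipocyte markers had a difference above 0 with unadjusted p under 0.05 and none passed the adjusted threshold (lowest adjusted p = 0.083 by limma), and their sums overlapped, at 6.20 to 778 FPKM among WT mice against 401 to 1864 FPKM among KO mice. Of 5 macrophage markers, 4 did so, and 1 of them, Emr1, passed, with a log2 difference of 0.89 (adjusted p = 0.042 by limma), where 0.862% of all genes passed. Macrophage sums were 9.97 to 46.3 FPKM among WT mice against 43.4 to 89.9 FPKM among KO mice. Of 4 fibroblast markers, 2 did so and none passed (lowest adjusted p = 0.072 by limma), with sums of 472 to 749 FPKM among WT mice against 643 to 1037 FPKM among KO mice. Other lists went the other way. With unadjusted p under 0.05 by limma, 4 of 5 smooth muscle, 3 of 4 tendon and 2 of 4 endothelial genes were lower in KO mice. Of all genes 13.4% were, and none of these markers passed. Sln is also a gene of the heart atrium, where Nppa is abundant. Nppa was between 0 and 0.215 FPKM in all libraries, and listed at 0 in 3. Of the 5 genes in the heart list, 3 were tested, and all 3 had a KO against WT difference above 0. Of these, 1 had an unadjusted p under 0.05 by limma, where 13.1% of all genes did, and none passed. Heart list sums were 44.2 to 195 FPKM among WT mice against 147 to 361 FPKM among KO mice. The part of these markers in the Sln difference was not tested.

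**Figure D3:**
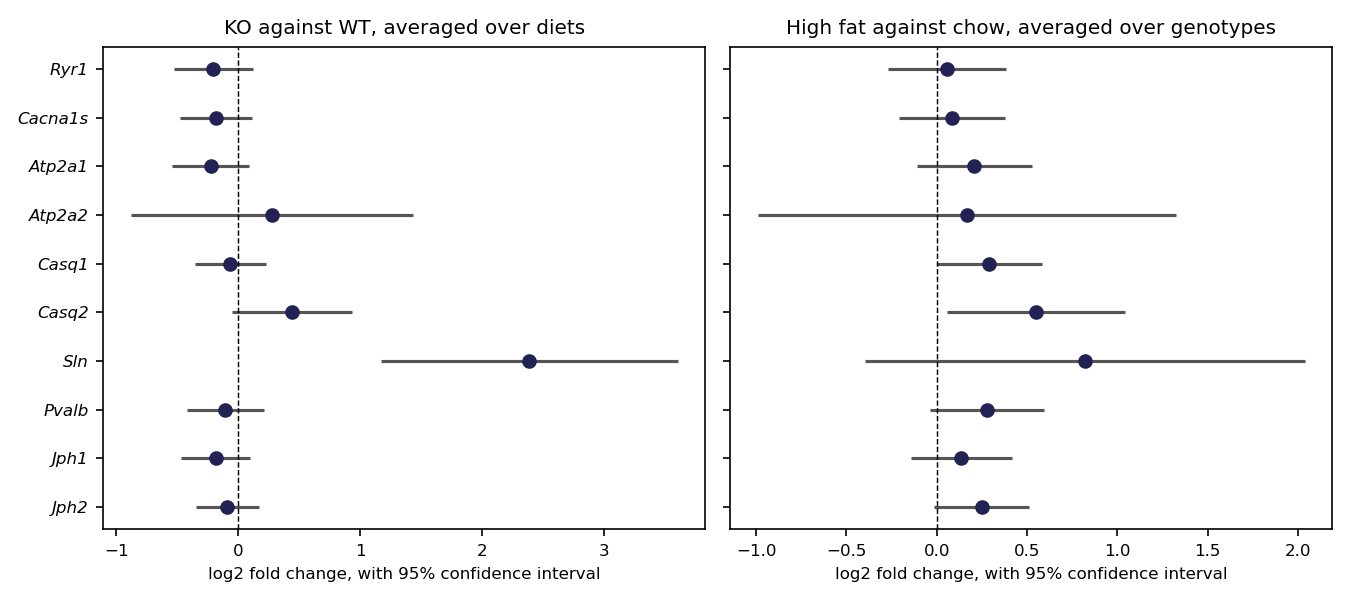
Log2 fold change of each gene with its 95% confidence interval from the limma fit, for KO against WT averaged over diets (left) and for high fat against chow averaged over genotypes (right); the dashed line is 0. Sln at 2.39 lies farthest from 0 on the left, and all 10 diet differences on the right are above 0, with the Casq1 and Casq2 intervals clear of 0 before adjustment.

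Of the 10 members, 7 varied together over the libraries. Ryr1, Cacna1s, Atp2a1, Casq1, Pvalb, Jph1 and Jph2 had r of 0.67 to 0.965 in their 21 pairs (median 0.87), and r of 0.81 to 0.94 with the mean of 9 fast fibre genes. Atp2a2, Casq2 and Sln stood apart from them, with r of -0.50 to -0.0015 against each of the 7. Casq2 and Sln had r = 0.74 with each other. These r values are a description over 12 libraries that share groups.

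The lymphoid-rich libraries had low values of these 7 genes. They were the 3 lowest of 12 for Atp2a1, Casq1, Pvalb and Jph2, and 2 of the 3 lowest for Ryr1, Cacna1s and Jph1. The sum of the fast fibre marker list was 51633 to 71611 FPKM in WT chow, 55621 to 69748 FPKM in WT high fat, 39990 to 59793 FPKM in KO chow and 58519 to 66732 FPKM in KO high fat mice. Lymphoid sums were 0.591 to 68.9, 1.52 to 6.40, 1.02 to 79.0 and 0.866 to 1.94 FPKM in the same order. The lymphoid-rich libraries also differed in other markers. KO chow mice 1 and 3 had the highest adipocyte sums of all mice, 1822 and 1864 FPKM, with macrophage sums of 68.9 and 64.6 FPKM. WT chow mouse 2 had the highest adipocyte (778 FPKM) and macrophage (46.3 FPKM) sums of the WT mice. The part of each tissue in the low values was not tested. Leaving out the 3 lymphoid-rich libraries kept only mouse 2 of the KO chow group, so the KO diet difference then rested on that mouse. It was 0.20 rather than 0.56 for Casq1, 0.17 rather than 0.50 for Pvalb and 0.10 rather than 0.44 for Jph2. Scaled to the fast fibre genes it was 0.27, 0.21 and 0.15, while that scaling moved the median of all genes from 0.03 to -0.22. For Sln, KO against WT averaged over diets was 2.48 without these libraries and 2.57 with that scaling. For Casq2, the WT diet difference was 0.83 and 0.80. Both alternatives were chosen after seeing the data.

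**Figure D4:**
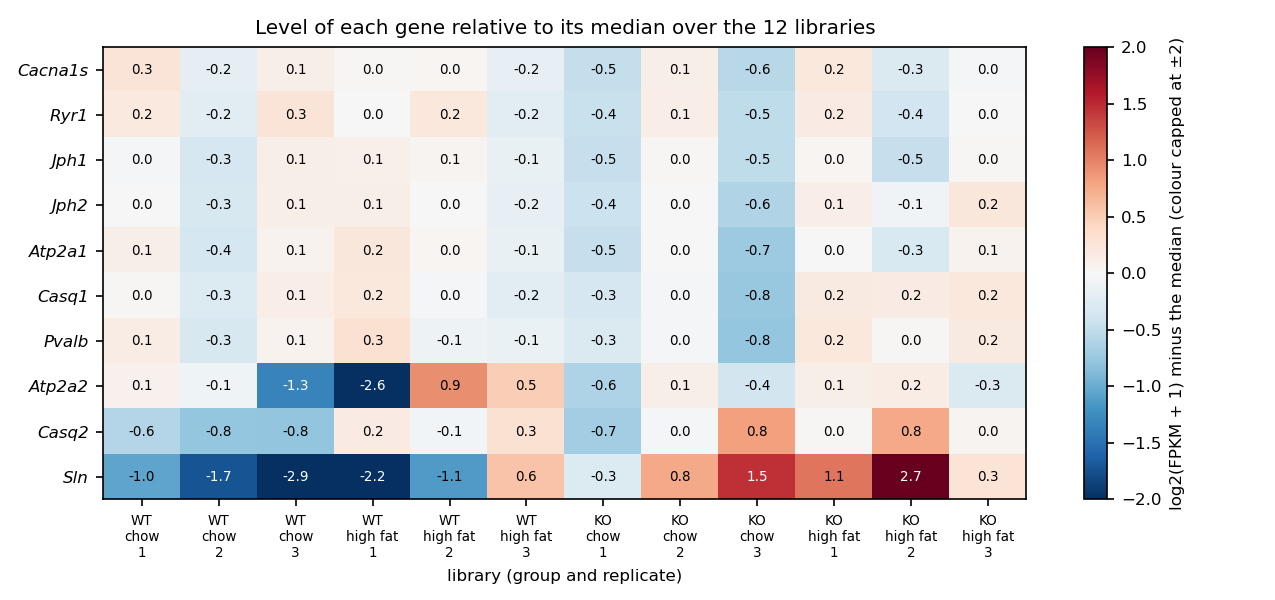
Log2(FPKM + 1) of each gene minus its median over the 12 libraries, by library, with the value in each cell and colour capped at 2 in either direction. The first 7 genes are low together in WT chow mouse 2 and in KO chow mice 1 and 3, Atp2a2 is lowest in WT high fat mouse 1, and Sln is above its median in 5 of 6 KO mice.

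Across the comparisons, 0 of the 10 members passed an adjusted p of 0.05 by limma in any of 7 comparisons, several of which share control mice. The share of all 11945 tested genes that passed was 0.1% for diet in WT, 0% for diet in KO, 0.0586% for genotype on chow, 0.109% for genotype on high fat diet, 0% for the interaction, 0.862% for genotype averaged over diets and 0.0586% for diet averaged over genotypes. At an unadjusted p under 0.05 there were 1, 3, 2, 1, 0, 1 and 2 members in the same order, against 8.12, 11.3, 16.7, 16.2, 6.25, 26.5 and 13.9% of all genes. Groups did not overlap for 1 member (Casq2) for diet in WT, where 13.1% of all genes were so separated, and for 2 members (Casq1 and Pvalb) for diet in KO, against 16.9%. For genotype on chow it was 1 member (Sln) against 18.4%, and for genotype on high fat diet 0 against 23.7%. With 6 against 6 mice it was 0 members for either genotype (2.71% of all genes) or diet (0.728%). The median member log2 difference was 0.30 for diet in KO and -0.31 for genotype on chow, beside 0.03 and -0.03 over all genes. For diet averaged over genotypes it was 0.23 beside 0.01, with 10 of 10 members above 0, and 6 of 10 above 0 when scaled to the fast fibre genes.

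Other genes of the pathway were taken as a list of 66, of which 64 were found and 55 passed the filter on low values. None of the 55 passed the adjusted threshold in any of the 7 comparisons by limma. At an unadjusted p under 0.05, the high fat diet gave 2 higher and 0 lower genes in WT mice, where 4.42% of all genes were higher and 3.7% lower. In KO mice it gave 10 higher and 2 lower genes, against 6.56 and 4.73% of all genes. KO against WT gave 2 higher and 9 lower genes on chow, against 6.73 and 9.93%, and 1 higher and 3 lower with high fat, against 9.79 and 6.45%. The interaction gave 5 above and 1 below 0, against 3.55 and 2.7%. Averaged over diets, 3 genes were higher in KO mice and 6 lower, against 13.1 and 13.4%. Averaged over genotypes, 6 were higher with high fat and 2 lower, against 7.96 and 5.94%. The median log2 difference of the 55 genes was 0.21 for diet in KO and -0.20 for genotype on chow.

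The peptide inhibitors of the pumps related to sarcolipin did not share its pattern. Pln, phospholamban, was low in this muscle, at 1.45, 1.49 and 1.66 FPKM in WT chow mice, 3.04, 2.13 and 2.89 FPKM in WT high fat mice, 2.21, 1.49 and 1.83 FPKM in KO chow mice, and 1.62, 1.40 and 1.88 FPKM in KO high fat mice. Its diet difference in WT mice was 0.53 (SE 0.13, adjusted p = 0.15 by limma) and its genotype difference on high fat diet was -0.48 (SE 0.13, adjusted p = 0.11 by limma). The 3 WT high fat mice were thus above their WT chow and KO high fat counterparts without overlap. Mrln (2310015B20Rik), myoregulin, averaged 167 ± 22.9 FPKM in WT chow and 113 ± 24.8 FPKM in KO chow mice, a log2 difference of -0.57 (SE 0.19, adjusted p = 0.28 by limma). By mouse it was at 186, 142 and 174 FPKM in WT chow and at 99.2, 142 and 97.8 FPKM in KO chow mice. Within each group the lymphoid-rich libraries, WT mouse 2 and KO mice 1 and 3, were lowest. On high fat diet Mrln averaged 132 ± 21.9 FPKM among WT mice against 140 ± 25.4 FPKM among KO mice, a log2 difference of 0.08 (SE 0.19, adjusted p = 0.90 by limma), with overlap.

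Outside the pumps, Rcan2, a calcineurin regulator, was lower in KO than in WT mice, at 20.1 ± 2.60 against 26.8 ± 4.72 FPKM (n = 6 each), a log2 difference of -0.39 (SE 0.12, adjusted p = 0.084 by limma), with overlap. Its paralogue Rcan1 went the other way, with overlap. KO chow mice 1, 2 and 3 had 31.3, 54.4 and 58.4 FPKM of Rcan1, and KO high fat mice had 45.4, 56.6 and 61.1 FPKM. WT chow mice had 33.7, 31.9 and 37.3 FPKM, and WT high fat mice had 40.8, 49.2 and 35.7 FPKM. All KO mice except chow mouse 1 were thus above all WT mice except high fat mouse 2. The log2 difference of Rcan1 is not given. Mcu (Ccdc109a), the pore of the mitochondrial calcium uniporter, was at 15.4 ± 1.51 FPKM on chow and 19.0 ± 1.51 FPKM on high fat diet (n = 6 each), with all high fat mice above all chow mice and a log2 difference of 0.29 (SE 0.078, adjusted p = 0.19 by limma). Itpr3, an inositol trisphosphate receptor, was at 1.73 ± 0.543 FPKM on chow and 1.14 ± 0.139 FPKM on high fat diet (log2 difference -0.33, SE 0.11, adjusted p = 0.25 by limma), with overlap. In the KO chow group, Itpr3 was highest in the lymphoid-rich mice 1 and 3, at 2.22 and 2.43 FPKM. Calr had a KO against WT log2 difference of 0.20 averaged over diets (SE 0.065, adjusted p = 0.10 by limma), with overlap. For Canx it was 0.27 on chow (adjusted p = 0.28 by limma). Micu2 (Efha1) gave 0.31 for diet in KO (adjusted p = 0.38 by limma). For genotype on high fat diet it gave 0.21 (adjusted p = 0.29 by limma). Tmem38b gave -0.22 for diet in WT and 0.48 for the interaction (adjusted p = 0.67 by limma for both).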

How the data were processed

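Per the labels, RNA of 12 mice was made into TruSeq libraries, and the submitters' processing notes name TopHat2 2.0.8b, Cuffdiff 2.1.1 and mm10. The authors deposited 1 FPKM table per library, without pooling, which holds no read counts, so depth and counting error are unknown. FPKM divides by transcript length and a library scale, so 1 abundant RNA can shift the others where that scale is the library total. Median-of-ratios size factors of these values lay between 0.998 and 1.01, and KO chow mouse 3 had 0.999. Rescaling by these factors thus changed little. Of symbols listed more than once the highest mean was kept. Genes with at least 1 FPKM in at least 3 libraries (11945) were tested on log2(FPKM + 1), which understates changes of low genes, with limma 3.58.1 (R 4.3.3, intensity trend, 4 group means, 8 residual degrees of freedom) and Benjamini-Hochberg adjustment at 0.05. The fit was tested on simulated data. Ratios and correlations used SciPy 1.17.1. The members and lists were chosen with earlier results of these data known. All members were described, other pathway genes were named by the lowest p in each direction of each comparison, and like genes by the highest Pearson's r. Rcan1 was added as the paralogue of Rcan2. Sequences came from RefSeq and GENCODE tables.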

Additional observations from a re-analysis of the deposited data

Results flagged for a closer look

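In the 6 high fat diet mice, Atp2a2 in WT mouse 1 (17.4 FPKM) lay far below the others, which ranged from 91.4 to 212 FPKM. On the log2(FPKM + 1) scale its gap to the nearest of the others was 0.658 of the whole range, above Dixon's 95% critical value for 6 samples, while on the FPKM scale it was 0.379, below that value. The same library had the lowest slow fibre marker mean of the 12, and its part in the Atp2a2 value was not tested.

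On the FPKM scale only, 4 other values lay above the critical value. Casq2 in KO chow mouse 3 (27.9 FPKM) stood 0.66 of the range above the other chow mice. Sln in WT high fat mouse 3 (58.9 FPKM) stood 0.745 of the range above the other WT mice. Sln in KO high fat mouse 2 (254 FPKM) stood 0.648 of the range above the other KO mice and 0.693 above the other high fat diet mice. On the log2 scale these gaps were 0.329 to 0.525 of the range. In all, 40 sets of 6 were tested, of which chance marks about 1 in 20.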

How the results depend on the processing

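No member passed the adjusted threshold under another pseudocount, filter, scaling, variance estimate or choice of mice, except Sln for genotype averaged over diets. Leaving out 1 mouse at a time there gave 0 to 1 members and Sln differences of 2.06 to 2.76. Of the other 60 member differences, 36 changed sign under some alternative. Without single mice, the log2 ratio of Atp2a2 to Atp2a1 differed by -0.0975 (without WT high fat mouse 1) to 0.853 between genotypes and by -0.385 to 0.565 (without WT high fat mouse 1) between diets, and the ratio of group means gave 0.209 for diet. The diet difference of Casq2 to Casq1 was 0.0973 to 0.608, the highest without KO chow mouse 3 (exact permutation p = 0.03).

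Over all genes, 103 passed for genotype averaged over diets, against 42 without the filter on low values, 40 with the replicate block, 32 scaled to fast fibre genes, 11 without the lymphoid-rich libraries, and 10 to 1200 without 1 mouse (fewest without WT chow mouse 1, most without KO chow mouse 2). Diet in WT had 12, against 7 with the block, 3 with only the compared groups or fast fibre scaling, 1 without the lymphoid-rich libraries and 1 to 32 without 1 mouse. Diet in KO had 0 (1349 at an unadjusted p under 0.05 by limma), against 15 with only the compared groups, 6 without the filter and up to 10 without 1 mouse. Genotype on high fat diet had 13, against 24 without the filter, 8 with the compared groups only or fast fibre scaling, 5 with the block and 4 to 82 without 1 mouse. Genotype on chow had 7, against 4 to 14 without 1 mouse, 3 with label-matched mice and 4 with the block. Diet averaged over genotypes had 7, against 3 scaled to fast fibre genes, 1 with the block or without the lymphoid-rich libraries, and 1 to 18 without 1 mouse. The causes were not tested. The scaling to fast fibre genes and the omission of lymphoid-rich libraries were chosen after seeing the data. That omission kept only KO chow mouse 2 in its group.

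Replicate numbers did not pair the mice (same-number correlations of -0.81 to 0.39). With the replicate block Sln had a genotype difference of 2.39 averaged over diets (adjusted p = 0.093 by limma), and no member's call changed. With 3 mice a group and no read counts, precision is limited to the confidence intervals given.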
